A study of Homo sapiens with 97 samples.

Results

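Human chromosome 19 was described through every region that the series lists on it: 341 peaks of nascent strand sequencing (NS-seq), 536 replication timing intervals and 8 DNA break sites. These 885 regions are all the rows on chromosome 19 among 26581 regions of the nuclear chromosomes in the 6 lists. Within the chromosome, 5 spans named for their clusters of zinc-finger genes were compared with the remaining sequence, and the p arm with the q arm. The spans, in the build hg19 of the lists, are chr19:20000001-24400000 (span 1), chr19:36600001-38400000 (span 2), chr19:44300001-45000000 (span 3), chr19:52300001-54000000 (span 4) and chr19:56200001-59000000 (span 5). They cover 11.4 Mb, or 19.3% of the chromosome, and hold 14 peaks, 114 timing intervals and 0 break sites by midpoint.

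The series studied DNA replication near double-strand breaks with 97 samples of human cell lines. The timing lists come from untreated wild-type U2OS osteosarcoma cells, deposited under a merged G1 sample and a merged S phase sample. The NS-seq list is a merged list deposited under the NS-seq input samples of wild-type AsiSI-U2OS cells. In these cells the restriction enzyme AsiSI cuts the genome after 4-hydroxytamoxifen (4OHT, 300 nM for 4 h). The labels do not say which libraries were merged, so peaks of the list could not be assigned to 4OHT-treated or untreated cells. The break list pairs AsiSI sites with binding of MRE11, a nuclease of break repair, in HCT116 colorectal carcinoma cells that lacked LIG4, a ligase of end joining, had the cohesin subunit RAD21 tagged with an AID degron for removal by auxin, and were treated with 4OHT. Breaks and timing therefore come from different cell lines.

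A chromosome is copied in domains with their own time in S phase, and each domain is copied from origins that fire within it. NS-seq purifies short, RNA-primed DNA strands made at origins, so a peak marks a place where such strands were enriched. Chromosome 19 is known for its gene density and for tandem clusters of KRAB zinc-finger genes, many of which encode repressors of transposable elements, and these clusters are known to carry repressive chromatin marks over their genes in many cell types.

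The gene content behind the spans was read from RefSeq, whose table uses GRCh38.p14 and so gives names and gene order but no hg19 position. It lists 1451 protein-coding genes on chromosome 19, of which 262 (18.1%) carry a ZNF, ZFP or ZSCAN name with a number. That is 46.9% of the 559 such genes in the table. There were 20 runs of at least 5 such genes with no other protein-coding gene between them, together 217 genes. The longest run, from ZNF737 to ZNF681, has 27 genes, and the runs from ZNF627 to ZNF791 and from ZNF565 to ZNF793 have 24 each. The run from ZNF283 to ZNF180 has 20 genes. How many of the 20 runs lie inside the 5 spans was not determined, so "the rest of the chromosome" below may hold further zinc-finger clusters.

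**Figure D1:**
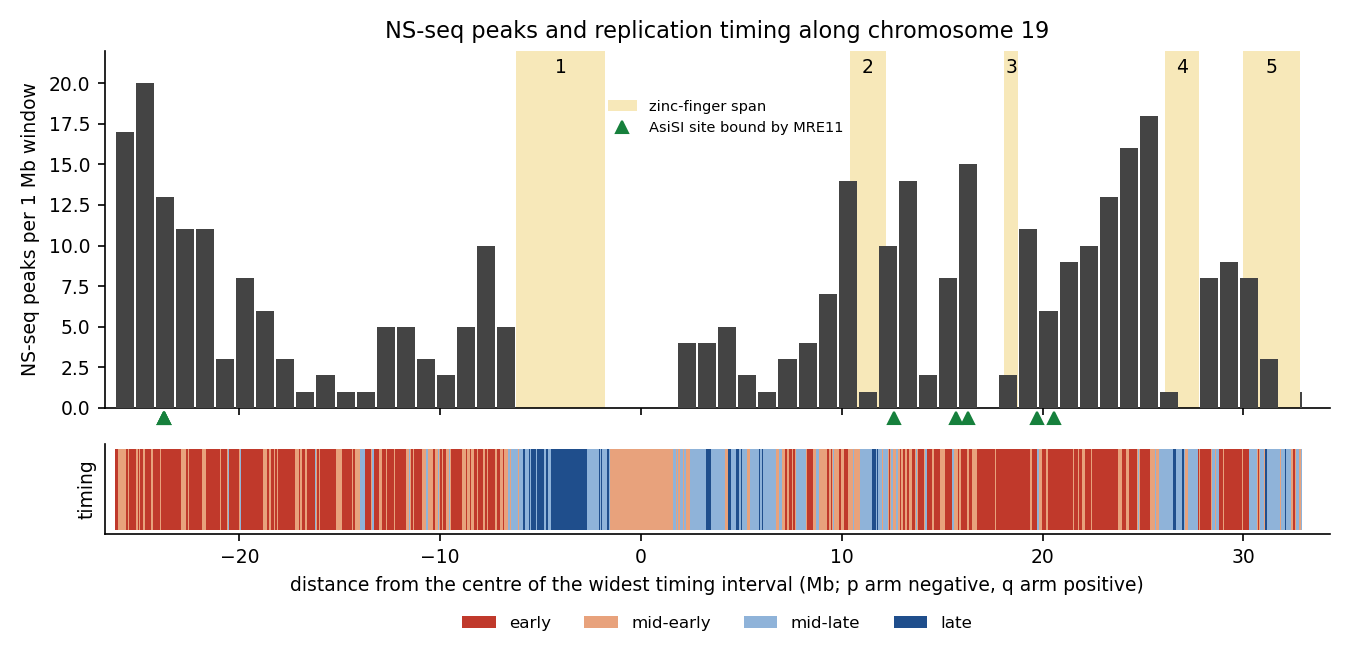
NS-seq peaks in windows of 1 Mb (bars, upper panel) and the timing class of each joined domain (colours, lower panel) along chromosome 19, placed by distance in Mb from the centre of the widest timing interval. The last window is shorter than 1 Mb. Shading shows the 5 spans and triangles the 8 break sites, of which 3 on the p arm overlap. The bars reach 20 peaks near the p-arm end and are at 0 across span 1.

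Timing intervals covered chromosome 19 from position 9901 to 59128900 with 0 gaps, 59.1 Mb in all. Early sequence made up 44.1% of it, mid-early 26.9%, mid-late 22.1% and late 6.89%. The mid-early list holds the widest interval, chr19:24655701-27754900, which is 3.10 Mb long and has 0 peaks. It was taken as the divider of the arms and belongs to neither of them, but it is part of the remaining sequence outside the spans. It lies at the centromere, where hg19 holds a run of unsequenced bases, and how much of the interval these take up was not determined. Without it, mid-early sequence outside the spans had 9.08 peaks per Mb in place of 7.19. Read depth is unknown for every list, so a stretch with no listed peak cannot be told apart from a stretch with too few mapped reads.

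The zinc-finger spans were mostly mid-late and late replicating. Mid-late sequence made up 51.6% of the spans and late sequence 28.8%, against 15.1% and 1.65% of the remaining 47.7 Mb. Early sequence made up 10.7% of the spans and 52.1% of the remainder. The spans held 80.65% of its late sequence and 44.95% of its mid-late sequence, but 4.67% of its early sequence. The lists have no replicates, so these shares carry no error and no test.

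The 5 spans differed widely among themselves. Span 1, the longest at 4.4 Mb, was 59.65% late and 39.6% mid-late, with 0.714% mid-early and 0% early. Span 4 was 70.7% mid-late and 16.1% late. Span 2 was 63.9% mid-late, 24.9% mid-early and 11.2% late. Span 5 was 63.7% mid-late, and 16.0% of it was early. Span 3 went against the other 4 spans, since all of its 0.7 Mb was early. It lies wholly inside chr19:43881501-45555100, the longest early domain of the chromosome at 1674 kb.

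The size of the excess of late sequence rested largely on span 1, which alone held 64.4% of the late sequence of the chromosome. Spans 2, 4 and 5 were 11.2%, 16.1% and 6.68% late, above the 1.65% of the remainder, and span 3 was 0% late. Late sequence was 27.2 percentage points more frequent in the spans than in the remainder, and 7.80 points more frequent when span 1 was left out. The difference in early sequence, -41.4 points, ranged from -47.2 to -34.7 points (spans minus remainder) when each span was left out in turn.

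**Figure D2:**
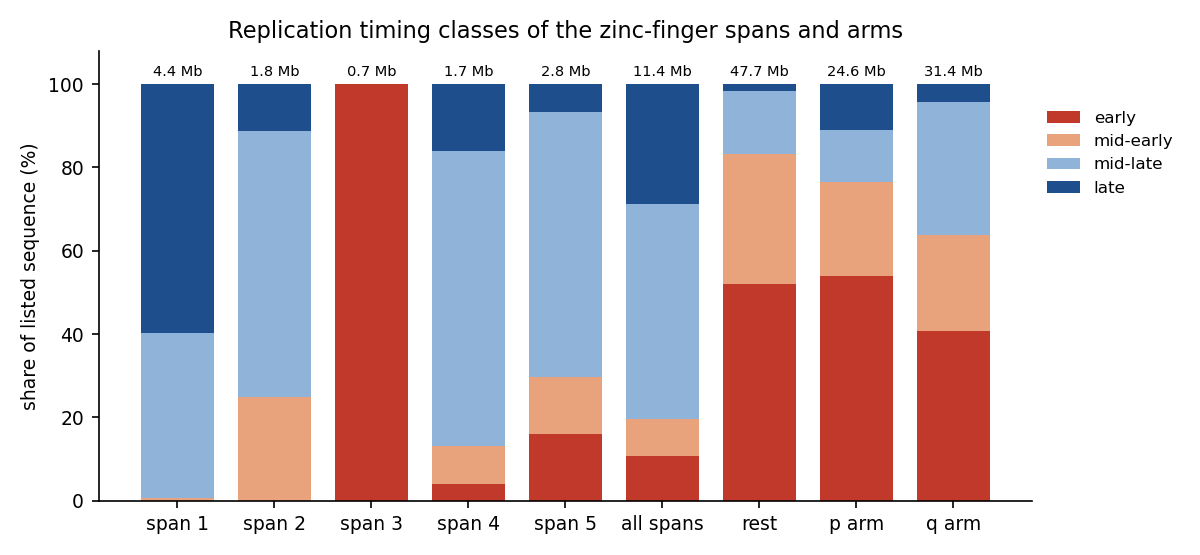
Share of listed sequence in each timing class (%, stacked bars), with the length of each region in Mb above its bar. Span 3 is 100% early, span 1 is 59.65% late, and the remainder of the chromosome is 52.1% early.

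Peaks were sparse in the spans. The 14 peaks of the spans came to 1.23 per Mb (exact Poisson 95% interval 0.671 to 2.06), and the 327 peaks of the remainder to 6.85 per Mb (6.13 to 7.64). The ratio of the densities was 0.179, with an exact conditional 95% interval from 0.0969 to 0.305. These intervals cover counting error only and are too narrow for peaks that lie in groups. Without the widest interval, the remainder had 7.33 peaks per Mb and the ratio was 0.168.

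Only spans 2 and 5 held peaks. Span 2 had 9 peaks, or 5.00 per Mb (2.29 to 9.49), and span 5 had 5, or 1.79 per Mb (0.580 to 4.17). Spans 1, 3 and 4 had 0 peaks, and a count of 0, taken to allow 3 counts, allows up to 0.682 peaks per Mb in span 1, 4.29 in span 3 and 1.76 in span 4. Span 3 is the shortest, and its limit is the widest. Span 2 held most of the peaks, and without it the ratio of spans to remainder was 0.0760.

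On the other chromosomes, density was 1.65 peaks per Mb in early and 0.3215 in late sequence, so densities were also compared within each class. In early sequence the spans had 1 peak, or 0.822 per Mb (0.0208 to 4.58), against 7.325 per Mb in the remainder. Mid-early sequence of the spans also had 1 peak, 0.984 per Mb (0.0249 to 5.48) against 7.19. In mid-late sequence, where the spans held 11 of their peaks, the density was 1.87 per Mb (0.934 to 3.35) against 4.86 (3.39 to 6.76). Late sequence had 1 peak in the spans, 0.304 per Mb (0.0077 to 1.70), and 3 in the remainder, 3.81 per Mb (0.785 to 11.1). The spans were lower in all 4 classes. Their ratio to the remainder was 0.112 (0.00283 to 0.633) in early, 0.137 (0.00343 to 0.779) in mid-early, 0.385 (0.176 to 0.775) in mid-late and 0.0800 (0.00152 to 0.996) in late sequence.

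Given the timing classes of each span, the class densities of the remainder would place 57.3 peaks in the spans. The 14 found are 0.244 of that number (exact Poisson 95% interval 0.134 to 0.410). Here and in ratios of this kind below, the number placed by the reference is taken as fixed. The error of the reference densities is left out, and the late density of the remainder rests on 3 peaks, so these intervals are too narrow. Span 2 lay near its number, with 9 peaks against 9.58, a ratio of 0.940 (0.430 to 1.78), but 7 of its peaks form a single run described below, and with the run counted as 1 peak the ratio was 0.313 (0.0646 to 0.915). Span 5 had 5 peaks against 15.4, a ratio of 0.325 (0.105 to 0.758). Spans 1, 3 and 4 had 0 peaks against 18.7, 5.13 and 8.505. The upper bounds of these 3 ratios were 0.197, 0.720 and 0.434.

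The value of this comparison depends on the reference. With the class densities of the other chromosomes, 11.4 peaks would fall in the spans, and the 14 found were 1.23 times that number (0.672 to 2.06). The 327 peaks of the remainder were 4.56 times the 71.75 placed there by the other chromosomes (4.08 to 5.08). The spans were thus sparse beside the remainder of chromosome 19, while the interval of their ratio to the other chromosomes includes 1. That ratio rested on span 2: it was 0.536 (0.174 to 1.25) without span 2, and 0.702 (0.303 to 1.38) with the run counted as 1. Span 2 itself had 9 peaks against 2.07, a ratio of 4.36 (1.99 to 8.27), which was 1.45 (0.2995 to 4.24) with the run counted as 1. The other chromosomes include Y, of which 93.7% of 59.4 Mb was mid-early, with 0.036 peaks per Mb of that class. They also hold single mid-early domains of 21.0 Mb on chromosome 1 and 18.1 Mb on chromosome 9. Chromosome Y lowers the mid-early reference density and so raises these ratios. How far it does, and the effect of the long domains, was not determined.

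**Figure D3:**
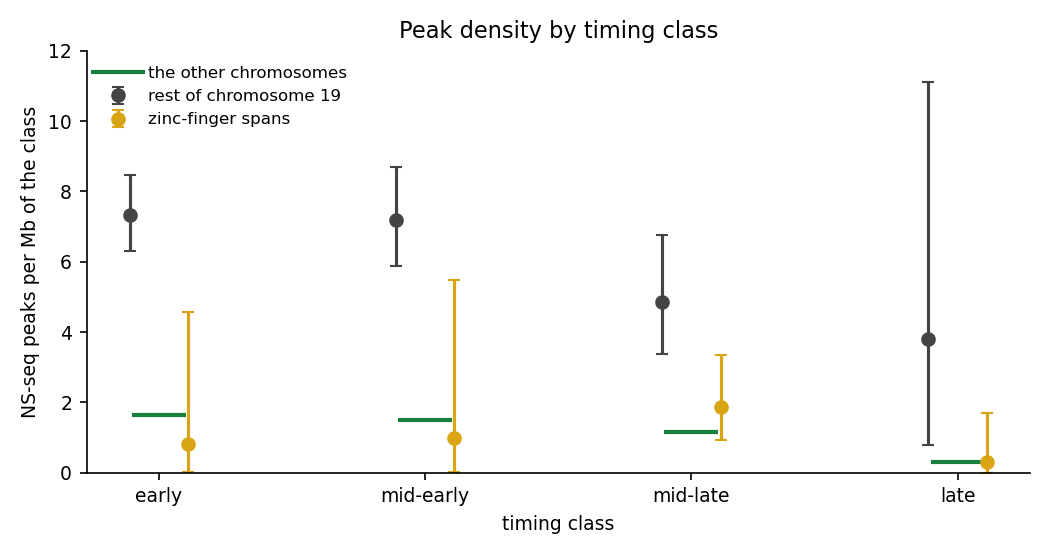
NS-seq peaks per Mb of each timing class in the 5 spans and in the remainder of chromosome 19 (points with exact Poisson 95% intervals), and in the other chromosomes (green bars). The spans lie below the remainder in all 4 classes, from 0.822 against 7.325 peaks per Mb in early to 0.304 against 3.81 in late sequence.

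The sequence within 1 Mb of each span gave a nearer reference. Span 2 lies in peak-rich surroundings, with 29 peaks in its 2.00 Mb of flanks, or 14.5 per Mb (9.71 to 20.8), so its own 5.00 per Mb was 0.345 of its flanks (0.144 to 0.748). The flanks of span 5 are 1.13 Mb long, since the listed sequence ends soon after the span, and were 84.8% early. They had 16 peaks, 14.2 per Mb, and the ratio was 0.126 (0.0361 to 0.360). These ratios were not matched for timing. In mid-late sequence alone they were 0.608 (0.139 to 3.645) for span 2 and 0.170 (0.0168 to 8.36) for span 5, and both intervals include 1. In mid-early sequence the ratio for span 2 was 0.103 (0.00251 to 0.636), and in early sequence that for span 5 was 0.152 (0.0036 to 1.0). Flanks of span 4 held 16 peaks, 8.0 per Mb, and those of span 3 held 13, 6.50 per Mb. The flanks of span 1 had 5 peaks, or 2.5 per Mb, and 3.98 per Mb (1.29 to 9.29) in the 1.26 Mb of them outside the widest interval. For spans 1, 3 and 4, with 0 peaks, the ratio to the flanks has an upper bound of 0.496, 0.938 and 0.305. Without the widest interval in the flanks, the bound for span 1 was 0.311. With the widest interval counted, flanks were mainly early or mid-early, from 67.6% beside span 1 to 96.0% beside span 3. Without that interval, the flanks of span 1 were 48.35% early or mid-early.

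Timing and density both changed near the span edges. More than 500 kb inside an edge, 5.72% of sequence was early or mid-early and 44.0% was late, with 5 peaks in 6.70 Mb, or 0.746 per Mb (0.242 to 1.74). Span 3, 0.7 Mb long and wholly early, does not reach this bin, so the bins do not hold the same spans. How much of the change between bins this makes was not determined. From 200 to 500 kb inside, 0 peaks fell in 2.70 Mb, with an exact upper bound of 1.37 per Mb. The 200 kb just inside the edges held 9 peaks, or 4.50 per Mb (2.06 to 8.54), and 48.5% of it was early or mid-early. Of those 9 peaks, 7 form the run in span 2 described below. The first 200 kb outside had 4.67 peaks per Mb (2.13 to 8.86), and the early or mid-early share there was 60.0%. At 200 to 500 kb outside, the density was 11.1 per Mb (7.50 to 15.9) and that share 82.6%. At 500 to 1000 kb outside, they were 8.89 per Mb (6.35 to 12.1) and 89.0%. Part of the widest interval, with 0 peaks, lies in the outer bins beside span 1. The spans of the rule are given to 0.1 Mb, so their edges are not the borders of single genes.

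**Figure D4:**
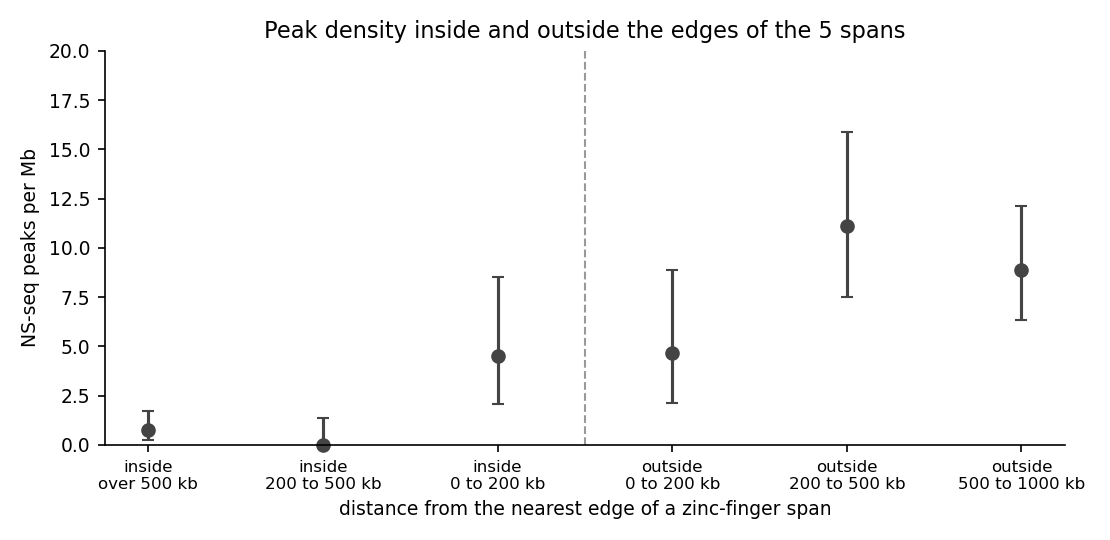
NS-seq peaks per Mb in bins of distance (kb) from the nearest edge of a zinc-finger span, all 5 spans pooled, with exact Poisson 95% intervals. The dashed line marks the edges. Density is 0.746 per Mb in the interior and 11.1 per Mb at 200 to 500 kb outside.

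The 14 peaks of the spans were described singly. Every peak in the list is 1000 bp wide, and its score is the authors' own value on an unstated scale. In span 2, 7 of the 9 peaks form a run at chr19:36760180-36791595, 31.4 kb long and wholly mid-late. The 6 distances from each start to the next were from 2459 to 7662 bp with a median of 5087 bp, and 4 of them lay between 4500 and 5500 bp. No other run of at least 4 peaks joined within 10 kb exists on chromosome 19. Scores in the run were from 10.2 to 14.2, within the lower part of the chromosome's range of 10.0 to 23.8. The other peaks of span 2 are chr19:36611334-36612333, which is mid-early with a score of 12.5, and chr19:37783966-37784965, which is late with a score of 12.1 and lies 916.5 kb from its nearest neighbour.

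The 5 peaks of span 5 lie apart from each other. The strongest, chr19:57105680-57106679, has a score of 19.4, rank 4 on the chromosome, lies in mid-late sequence and is 292.4 kb from its nearest neighbour. The other mid-late peaks start at 56813244, 57528556 and 57742489, with scores of 11.2, 16.4 and 12.9. The early peak of the spans, chr19:56202483-56203482, has a score of 10.4 and lies just inside the edge. Scores averaged 12.5 ± 2.64 (SD, n = 14 peaks) in the spans and 12.5 ± 2.45 (SD, n = 327) in the remainder. The difference, -0.0475 with a standard error of 0.718, was smaller than the spread of either set, and peaks of 1 list are not replicates.

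The strongest peaks of the chromosome were not those of its earliest sequence alone. The highest score, 23.8, belongs to chr19:28775327-28776326, in the longest mid-late domain, on the q arm. Ranks 3, 4 and 5 are mid-late as well: chr19:39900619-39901618 with 20.8, the span 5 peak with 19.4, and chr19:33210872-33211871 with 18.99. Rank 2, chr19:45322986-45323985 with 21.8, is early and lies in the same domain as span 3. Ranks 6 to 10 are on the p arm, 4 of them early and 1 mid-early. They are chr19:18746897-18747896 with 18.9, chr19:2801812-2802811 with 18.7, the mid-early chr19:4380856-4381855 with 18.7, chr19:828349-829348 with 18.65 and chr19:771379-772378 with 18.4.

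Domain length, taken over neighbouring intervals of 1 class joined, differed little between spans and remainder when all classes were pooled. The median was 94.0 kb over 63 domains in the spans and 98.5 kb over 269 domains elsewhere. The length-weighted mean, the mean domain length seen from a random base, was 655.6 kb in the spans and 579.4 kb elsewhere. This ratio of 1.13 depended on a few domains: it was 0.865 without span 3, whose single domain extends beyond it, 0.859 with domains clipped at the span edges, and 1.65 without the widest interval.

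By class the lengths went in opposite directions. Mid-late domains had a median of 194.6 kb in the spans (28 domains) and 85.8 kb elsewhere (48 domains). Early domains had a median of 100.8 kb in the spans (5 domains) and 168.7 kb elsewhere (86 domains), and mid-early domains 48.75 kb (12) and 69.9 kb (127). Late domains had similar medians, 74.2 kb (18) and 64.4 kb (8). Single domains ranged over more than the gap between these medians in every class. Of the 7 mid-late domains of at least 500 kb, 4 lie in the spans and 3 elsewhere. Those 4 held 3 peaks in 2.49 Mb, and the other 3 held 10 peaks in 2.19 Mb.

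**Figure D5:**
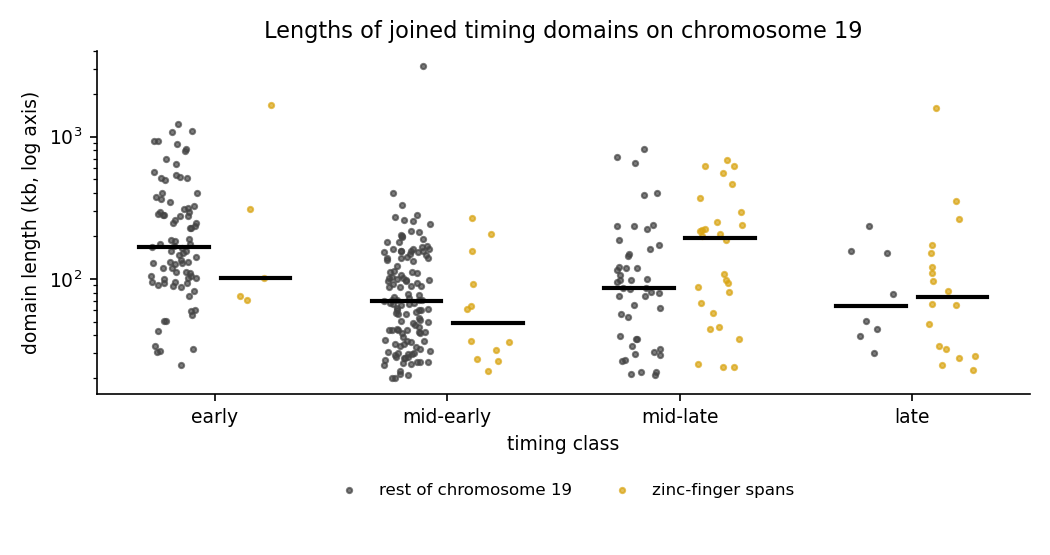
Length of each joined timing domain (kb, log axis) by class, for domains whose midpoint lies in a span or elsewhere on chromosome 19. Black lines are medians, and points are spread sideways at random. Mid-late domains have a median of 194.6 kb in the spans and 85.8 kb elsewhere.

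The longest late domain, chr19:21936101-23518300, is 1582 kb long, lies inside span 1 and holds 0 peaks. It is the only late domain of at least 500 kb on the chromosome. The longest mid-late domain, chr19:28633001-29448800, is 815.8 kb long, lies on the q arm outside the spans and holds 3 peaks. The longest mid-early domain, chr19:24655701-27776500, is 3121 kb long because it contains the arm divider, and the next, chr19:35045101-35447100, is 402.0 kb long.

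The longest early domain has span 3 inside it, so both sides of the span share its timing class. It holds 8 peaks, of which 2 lie before the span, 6 after it and 0 within its 0.7 Mb. The 973.6 kb outside the span had 8.22 peaks per Mb. The other early domains over 1 Mb on the q arm differed in density too: chr19:46480401-47704300 had 7 peaks in 1224 kb, and chr19:48873201-49974600 had 17 in 1101 kb, or 15.4 per Mb. The early domain chr19:42921401-43848000, 926.6 kb long and in no span, had 0 peaks. A lack of peaks over such a length of early sequence was thus not particular to span 3. The peak-free stretch around span 3, chr19:44143722-45248831, also runs beyond both edges of the span.

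Of 331 borders between domains, 61 lay in the spans, 5.35 per Mb against 5.66 per Mb elsewhere. The kinds of border differed, but this follows from where domains of each class lie and is no separate result. In the spans lie 18 of the 26 late domains and 5 of the 91 early domains. Mid-late to late borders numbered 52, of which 36 lay in the spans, and early to mid-early borders numbered 180, of which 5 did. Borders between early and mid-late sequence with no mid-early interval between them were 2 in number, 1 of them in the spans.

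Between the arms, the p arm was earlier and the q arm denser in peaks. The p arm, 24.6 Mb, was 54.0% early, 22.5% mid-early, 12.5% mid-late and 11.0% late. The q arm, 31.4 Mb, was 40.65% early, 23.1% mid-early, 31.9% mid-late and 4.37% late. Span 1 is the only span on the p arm, and outside it the p arm had 0.0786 Mb of late sequence. Without the spans, early sequence made up 65.7% of the p arm and 47.3% of the q arm, so the difference between arms widened from 13.3 to 18.4 percentage points.

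The p arm had 132 peaks, 5.36 per Mb (4.48 to 6.35), and the q arm 209, 6.66 per Mb (5.79 to 7.63). The ratio of 0.804 had an exact conditional 95% interval from 0.642 to 1.005, which includes 1. Within classes, it was 0.888 (0.657 to 1.20) in early sequence, 0.682 (0.445 to 1.03) in mid-early and 0.581 (0.219 to 1.31) in mid-late. Late sequence of the p arm had 0 peaks and that of the q arm 4. Given their timing classes, the arms had 132 peaks against 162.6 and 209 against 199.4 placed by the densities of the sequence outside the spans, ratios of 0.812 (0.679 to 0.962) and 1.05 (0.911 to 1.20). The p arm counted here includes span 1. With the spans left out, the ratios were 0.917 (0.767 to 1.09) on the p arm and 1.21 (1.05 to 1.40) on the q arm. The reference is made of these same arms and the widest interval, which lowers its mid-early density from 9.08 to 7.19 peaks per Mb. The ratios of the arms are thus not independent of each other, and both are raised by that interval. With the spans left out of both arms, the ratio of p to q arm was 0.815 (0.648 to 1.02) over all classes, 0.812 (0.5999 to 1.10) in early, 0.601 (0.392 to 0.908) in mid-early and 1.09 (0.402 to 2.55) in mid-late sequence. The interval excludes 1 only for mid-early sequence, 1 of the classes compared.

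The p-arm peaks were unevenly placed. The first 5 Mb held 72 peaks, 14.4 per Mb (11.3 to 18.2), which is 21.1% of the peaks of the chromosome. The next 5 Mb held 21 peaks, 4.20 per Mb (2.60 to 6.42), and the following 5 Mb 14, 2.80 per Mb (1.53 to 4.70). Early sequence made up 71.4%, 79.6% and 66.6% of these 3 blocks, so density differed among blocks of similar early share. Without the first and last 2 Mb of the chromosome, the ratio of p to q arm was 0.598 (0.464 to 0.766). The first 2 windows of 1 Mb hold 17 and 20 peaks, and the last 2 Mb lie mostly in span 5. This cut therefore had to lower the ratio. On the q arm, the densest blocks were 45 to 50 Mb, with 49 peaks and 83.2% early sequence, and 35 to 40 Mb, with 46 peaks and 20.1% early sequence. The latter contains span 2 and its flanks.

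Peaks also lay closer together on the q arm. A neighbour within 10 kb was found for 35.4% of q-arm peaks and 24.2% of p-arm peaks, and the median distance to the nearest peak was 18.6 kb and 32.7 kb. Domain lengths pooled over classes were close on both arms. Their medians were 94.2 kb over 151 domains on the p arm and 101.0 kb over 180 on the q arm, and the length-weighted means 446.2 kb and 462.0 kb. By class, medians on the p and q arm were 156.8 and 172.4 kb for early, 60.7 and 74.4 kb for mid-early and 67.7 and 119.3 kb for mid-late domains. Early domains of at least 500 kb numbered 9 on the p arm and 7 on the q arm.

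The 5 densest windows of 1 Mb all lie outside the spans. The window at 1000001 to 2000000 had 20 peaks, that at 51000001 to 52000000 had 18, the first of the chromosome had 17, that at 50000001 to 51000000 had 16, and that at 42000001 to 43000000 had 15. They were between 46.2% and 63.7% early, and the remaining sequence in them was mainly mid-early. Windows without a peak numbered 11 of 60 (18.3%), against 67.9% of the 1 Mb windows of all nuclear chromosomes. Among the 11 windows that lie for the most part in the spans, 6 (54.5%) had no peak, and among the other 49 windows, 5 (10.2%) had none. Of those 5, 4 touch the widest interval.

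Several of the longest peak-free stretches contain spans, and some do not. The longest, chr19:19351141-28335980, is 8.985 Mb long, contains all of span 1 and the widest interval, and is 5.89 Mb long without the latter. The next, chr19:52001691-54461813, is 2.46 Mb long and contains all of span 4. The third, chr19:11462863-12862441, is 1.40 Mb long, lies in no span and is 54.3% early. The fourth, chr19:57743489-59068971, is 1.33 Mb long and 94.8% of it lies in span 5. The fifth, chr19:8642737-9902495, is 1.26 Mb long, lies in no span and is 70.4% early. A stretch of 1105 kb, chr19:44143722-45248831, contains span 3 and is 100% early. A stretch of similar length, 1119 kb, at chr19:42911428-44029947 lies in no span and is 96.1% early. Whether the stretches in no span hold runs of zinc-finger genes was not determined, so they cannot be read as free of such genes.

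All 8 break sites lie outside the spans, 4 in early and 4 in mid-early sequence. These classes together make up 70.98% of the chromosome. A count of 0 of 8 in the spans allows a share of up to 37.5%, which is above the 19.3% of the chromosome that they cover, so a shortage of break sites in them was not detectable. On the p arm, sites start at 2455992, 2456093 and 2456595, so they share 1 neighbourhood. They lie in an early domain of 882.0 kb, 21.2 to 21.8 kb from the nearest peak, with 13 peaks within 500 kb. The site nearest to a span, chr19:38827326-38827333, lies 427.3 kb beyond span 2 in mid-early sequence and overlaps a peak with a score of 10.7, with 4 peaks within 50 kb. The mid-early site chr19:42497855-42497862 lies 93 bp from a peak with a score of 17.2. The mid-early sites chr19:41903742-41903749 and chr19:45932079-45932086 lie 29.1 and 67.9 kb from the nearest peak. The early site chr19:46768783-46768790 lies 124.0 kb from one, inside a 1224 kb early domain. A peak within 10 kb was thus found for 2 of 8 sites (25.0%, exact Clopper-Pearson 95% interval 3.19 to 65.1). The share of all sequence within 10 kb of a peak was not determined, so this share has no background beside it. The limit and the interval treat the 8 sites as separate, although the 3 p-arm sites share their nearest peak.

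Chromosomes 17 and 22, the nearest to chromosome 19 in peak density, were set beside it. Peaks per Mb were 5.77 on chromosome 19, 3.81 on chromosome 17 and 5.81 on chromosome 22. In early sequence chromosome 19 was the densest of 24 chromosomes, with 7.02 peaks per Mb against 3.80 and 4.76. In mid-late and late sequence its 3.52 and 0.982 per Mb were near those of chromosome 17 (3.46 and 0.608) and below those of chromosome 22 (7.07 and 3.46). Mid-late sequence made up 22.1% of chromosome 19, 11.8% of chromosome 17 and 18.1% of chromosome 22. Chromosome 19 had the shortest median domain of the 24, 97.8 kb against 108.3 and 104.3 kb, and the most borders, 5.60 per Mb against 4.34 and 5.21. Its longest early domain, 1674 kb, was shorter than the 3009 kb and 2546 kb of the other two. The longest peak-free stretches of the 3 were 8.99, 6.33 and 2.86 Mb, but that of chromosome 19 is 5.89 Mb without the widest interval. Chromosome 17 also has a mid-early domain of 2952 kb. Whether its longest stretch contains that domain was not determined, so 5.89 Mb cannot be ranked against 6.33 Mb.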

How the data were processed

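Samples were grouped by their titles, and each list was used as the authors deposited it. The submitters' processing notes name hg19 and MACS2, with no version or role. Sources used here do not give the aligner, the peak threshold, the pooling or the division into timing classes. The NS-seq score is a deposited value of the authors on an unstated scale, used only to describe and rank peaks within the list. Start and end positions were deposited in BED form and are printed 1-based.

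Python 3.11.15, numpy 2.4.6, pandas 2.3.3, scipy 1.17.1 and matplotlib 3.10.9 were used. Peaks, sites and domains were placed by midpoint, and domains join neighbouring intervals of 1 class. Densities are per Mb of listed sequence. Intervals are exact (Poisson, conditional binomial or Clopper-Pearson, 95%), cover counting error only, and are no tests, since each list is 1 sample without replicates. For ratios to a number placed by class densities, only the counting error of the peaks found is covered. The density ratio was tested on simulated peaks placed singly at random, with no grouping and no dependence on timing. Its interval was therefore not tested for peaks that lie in groups. Regions named are the spans, the longest domains of each class, the 10 peaks of highest score, up to 5 peaks per span by score (all 14 are given, a choice made after their values were seen), the 5 densest windows, the 5 longest peak-free stretches and all break sites. Beyond these, 2 more stretches, 2 more early domains over 1 Mb, a further early domain and 1 more mid-early domain were chosen after their values were seen. The spans, members and named regions were chosen with earlier results of these data known. Alternatives varied the span edges, the classes, the widest interval, the joining of peaks and the chromosome ends. No sequence or gene was placed by position, since an hg19 genome was not used here.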

Additional observations from a re-analysis of the deposited data

How the results depend on the processing

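For 12 results, 89 alternatives were run, of which 12 were chosen after seeing the data. Of all 89, 8 lay on the other side of no difference from the value reported: the domain length ratio (1.13) with spans widened (0.970), without span 3 (0.865) or clipped (0.859), the score difference (-0.0475) with medians (0.248) or without span 2 (1.53), and 3 ratios given timing. Widening each span by 0.5 Mb gave an early share difference of -30.9 points, a late difference of 19.3, a density ratio of 0.495 and a ratio given timing of 0.598. Narrowing by 0.2 Mb gave a late difference of 32.4, a density ratio of 0.0787 and a ratio given timing of 0.110. Joining early with mid-early and mid-late with late gave -63.7 and 63.7 points, and 100.0% of break sites in the earlier class. That class makes up 70.98% of the chromosome. Leaving out each span in turn gave -47.2 to -34.7 points for early share, 7.80 (without span 1) to 34.4 for late share, 0.0760 (without span 2) to 0.292 for the density ratio, 0.105 (without span 2) to 0.363 for the ratio given timing, 0.865 to 1.32 for domain length and -0.922 to 1.53 (without span 2) for mean score. Class densities of the other chromosomes turned the ratio given timing to 1.23, which leaving out spans moved from 0.536 (without span 2) to 1.65 and the run of 7 peaks counted as 1 to 0.702. Counting the run of 7 peaks as 1 gave a density ratio of 0.102, and mid-late and late sequence alone gave 0.275. Between arms, dropping the spans gave 18.4 points of early share. Without the first and last 2 Mb, the p over q density ratio was 0.598 (0.464 to 0.766). Without the first 5 Mb of the p arm, a block chosen for its many peaks, it was 0.458. Both cuts remove peak-rich sequence of the p arm, which had to lower this ratio. It was 0.794 (0.633 to 0.992) with the widest interval shared between the arms, and nearer to 1 for peaks at or above the median score (0.857, 0.621 to 1.18) or joined within 10 kb (0.880, 0.687 to 1.12) or 50 kb (0.943, 0.693 to 1.28). A distance of 50 kb gave 75.0% of break sites near a peak, and the share of all sequence that near a peak was not determined. Apart from the constructions named, the cause of these shifts was not tested. Narrowed spans were not run for the score. No paired analysis was possible because the lists merge libraries and carry no replicate numbers. Read depth is unknown, and a single list gives no error between samples.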
